A study of Mus musculus with 4 samples.

Results

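The common gamma chain cytokine receptors are a family of T cell and NK cell receptors that share 1 signalling chain. Their genes were followed here in T cells from mouse tumours: Il2ra, Il2rb, Il2rg, Il7r, Il4ra and Il21r, chosen by name, 6 of the 13518 genes in the table. All 6 are in the table, and all 6 passed the filter on low values in each comparison described.

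MC38, a mouse line of colon carcinoma, had been implanted orthotopically in C57BL/6 mice, and the tumours that formed were sampled. The 4 arms were ATT-I with anti-PD-1 (combination), anti-PD-1 alone, ATT-I alone, and vehicle, which the sample's own treatment entry calls no treatment. ATT-I is atractylenolide I, a plant sesquiterpene lactone, given at 50 mg/kg every day, and anti-PD-1 is an antibody that blocks an inhibitory receptor of T cells, given 3 times a week and 5 times in all. Tumours were taken after 2 weeks, and cells of 5 tumours were pooled into the 1 droplet single-cell library of each arm, so differences between arms are differences between 4 libraries. Age and sex of the mice are not given in the sources used here.

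Each receptor of the family pairs the common gamma chain, encoded by Il2rg, with a chain of its own. The alpha chain Il2ra gives the IL-2 receptor its high affinity and is a hallmark of regulatory T cells. Il2rb is shared by the IL-2 and IL-15 receptors, Il7r binds IL-7 and marks long-lived naive and memory T cells, Il4ra serves the IL-4 receptor, and Il21r binds IL-21. Signals pass through the kinases Jak1 and Jak3 to STAT factors, STAT5 for IL-2, IL-7 and IL-15, STAT6 for IL-4 and STAT3 for IL-21.

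The combination library held 199 cells, the anti-PD-1 library 12562, the ATT-I library 297 and the vehicle library 155, and their summed UMIs came to 5.23, 109, 2.88 and 3.10 M in the same order, where M is the prefix mega. A UMI is a counted RNA molecule. The median cell held 23927 UMIs in the combination, 7148 in anti-PD-1, 6828 with ATT-I and 16129 in vehicle, and 1 cell barcode was found in 2 libraries. The 8 measured T cell markers summed to between 46.1 and 82.0 UMIs per 10000 UMIs over all cells of a library. Markers of monocytes or macrophages summed to between 0.111 and 0.335 and those of epithelial tumour cells to between 0.0554 and 1.45, so the tissue label tumour stood beside cells that are mostly T cells by their genes. Red cell genes set the ATT-I library apart, with 53.8 UMIs per 10000 against at most 0.738 in the other libraries.

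Cells were gated on their own UMIs. CD8 cells needed at least 2 UMIs of Cd8a and Cd8b1 and more than 2 times the Cd4 UMIs. Foxp3+ cells needed a Foxp3 UMI, and CD4 conventional cells a Cd4 UMI and no Foxp3 UMI. The CD8 gate held 121 combination, 8862 anti-PD-1, 108 ATT-I and 49 vehicle cells, the Foxp3+ gate 29, 869, 27 and 23, and the CD4 conventional gate 40, 1223, 92 and 55. Mki67, a gene of dividing cells, had a UMI in 90.1% of CD8 cells in the combination (83.3 to 94.8, here and for other shares the exact Clopper-Pearson interval at 95%), 35.2% in anti-PD-1 (34.2 to 36.2), 39.8% with ATT-I (30.5 to 49.7) and 91.8% in vehicle (80.4 to 97.7). After thinning to 3000 UMIs per cell these shares were 79.0%, 21.9%, 28.6% and 81.2%. The gates were not pure: Foxp3 had a UMI in 7.79% of anti-PD-1 CD8 cells, and Cd8a in 28.0% of anti-PD-1 CD4 conventional cells. All intervals here cover counting error only.

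The levels below are UMIs of a gene per 10000 UMIs summed over the cells of a gate, and are compared within a gene, not between genes. Fewer cells with the RNA and less RNA in each cell cannot be told apart in such a sum. In the GRCm38 annotation Il2ra lies at chr2:11642807-11693193 on the plus strand, Il2rb at chr15:78479256-78495271 and Il7r at chr15:9505788-9530176 on the minus strand, and Il2rg at chrX:101264378-101268255 on the minus strand. Il4ra at chr7:125552120-125579474 and Il21r at chr7:125603429-125633570 are neighbours on the plus strand, with 23954 bases between them. All 6 are protein-coding genes.

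The start-site windows of Il2ra and Il7r are shown because the gate and Mki67 differences below turn mostly on these 2 chains. Each window runs 5′ to 3′ from 250 bases before to 50 bases after the gene's RefSeq start, build GRCm38.p6. Il2ra is at chr2:11642542-11642841 on the plus strand and Il7r at chr15:9529827-9530126 on the minus strand, inside the span that the GENCODE annotation gives to Il7r. Capitals mark matches to 2 searched motifs, and windows of 5 of the 6 members were in the RefSeq table.
Il2ra: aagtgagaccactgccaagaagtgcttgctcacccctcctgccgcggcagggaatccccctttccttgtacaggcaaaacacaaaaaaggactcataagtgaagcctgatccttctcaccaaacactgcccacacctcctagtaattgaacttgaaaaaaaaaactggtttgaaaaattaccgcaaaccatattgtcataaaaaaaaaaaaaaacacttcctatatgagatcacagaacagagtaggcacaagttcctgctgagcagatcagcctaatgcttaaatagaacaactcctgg
Il7r: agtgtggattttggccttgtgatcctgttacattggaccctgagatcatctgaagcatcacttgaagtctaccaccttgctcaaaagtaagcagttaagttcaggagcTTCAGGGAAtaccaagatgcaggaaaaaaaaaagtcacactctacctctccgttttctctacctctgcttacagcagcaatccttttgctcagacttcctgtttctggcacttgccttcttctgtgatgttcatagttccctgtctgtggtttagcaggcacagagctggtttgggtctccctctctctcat

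The motifs searched on both strands were TTCNNNGAA for STAT5 and CCGGAAG for Ets factors. Il7r held 1 STAT5 match, beginning at position -142 from the start, and 8.30% of the 32851 windows in the RefSeq table held one. The Il2ra window held neither, which says only that these letters are not in this window. Of the other members, Il2rg held an Ets match (8.86% of windows), and Il4ra and Il21r held neither motif.

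Il2ra, the alpha chain of the high-affinity IL-2 receptor, was the chain that set Foxp3+ cells apart from CD4 conventional cells. Its level was 5.63 in combination, 2.44 in anti-PD-1, 1.56 with ATT-I and 2.98 in vehicle Foxp3+ cells, against 1.69, 0.773, 0.480 and 1.33 in CD4 conventional cells of the same libraries. Within each library the Foxp3+ value was the higher one, and across libraries the gates overlapped only in that combination CD4 conventional cells lay above ATT-I Foxp3+ cells. The means were 3.15 ± 1.75 in Foxp3+ and 1.07 ± 0.543 in CD4 conventional cells (SD, n = 4 libraries), and Il2ra rose 2.75-fold in the Foxp3+ gate (log2 1.46 ± 0.14 SE, limma with library as block, adjusted p = 8.6e-07, higher in 4 of 4 libraries). Without the library block the limma adjusted p was 0.066. These 4 libraries are 1 of each arm, so the fit compares gates and not treatments.

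Of the 6 chains, Il2ra alone passed the test between Foxp3+ and CD4 conventional cells, 1 higher and 0 lower, where 3.71% of the 7498 genes tested were higher and 5.20% lower. Il7r is often used as a marker that is low on regulatory T cells, and here its level was 1.06 in combination, 2.76 in anti-PD-1, 1.78 with ATT-I and 2.11 in vehicle Foxp3+ cells, against 1.53, 2.54, 1.55 and 1.38 in CD4 conventional cells. The Foxp3+ value was the higher one in every library other than the combination, and the gates overlapped. The difference was log2 0.10 ± 0.15 (limma adjusted p = 0.76). Il21r was lower in Foxp3+ cells of 4 of 4 libraries but did not pass (log2 -0.45 ± 0.16, limma adjusted p = 0.092). Il2rb, Il2rg and Il4ra had log2 differences of -0.02 ± 0.13, -0.27 ± 0.16 and -0.04 ± 0.22, with limma adjusted p of 0.94, 0.34 and 0.94.

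**Figure D1:**
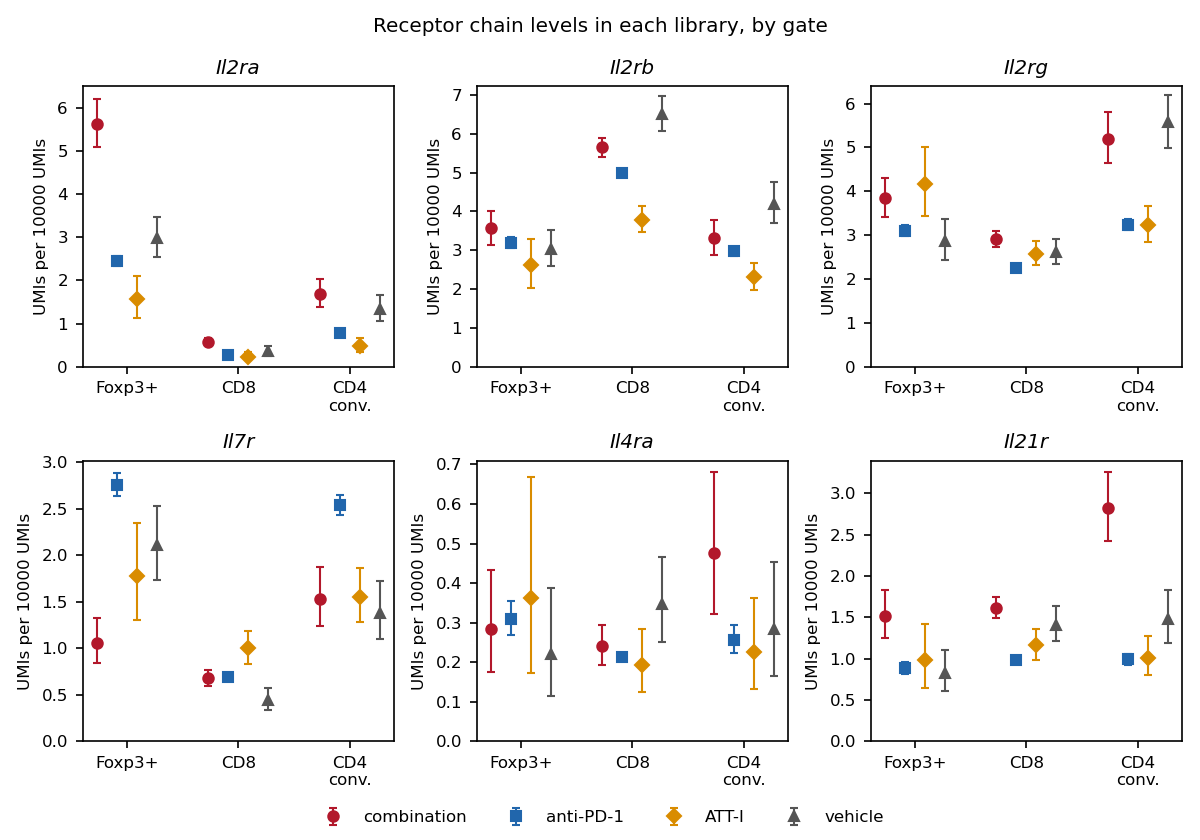
Levels of the 6 chains (UMIs per 10000 UMIs, linear axes from 0) in Foxp3+, CD8 and CD4 conventional cells of each library, with exact 95% Poisson intervals as bars. Il2ra is highest in Foxp3+ cells (1.56 to 5.63), Il2rb in CD8 cells of each library, and Il7r lowest in CD8 cells of each library.

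The other genes of the pathway, 47 listed from ligands to targets and 43 of them in the table, were counted beside the chains. Of 35 tested, 2 were higher and 5 lower in Foxp3+ cells, where 3.71% and 5.20% of all genes were, with a median log2 of -0.18 against -0.04 over all genes. The higher ones were Myc, a transcription factor gene induced by cytokines (log2 0.79 ± 0.23, limma adjusted p = 0.036), and Pim1, a survival kinase (0.70 ± 0.13, adjusted p = 0.0012). Bcl2, the survival factor that IL-7 signals sustain, fell by 1.92 on the log2 scale (SE 0.16, limma adjusted p = 2.7e-07), with 0.400 ± 0.179 in Foxp3+ and 1.77 ± 0.545 in CD4 conventional cells (SD, n = 4). Lta, Socs3, Runx3 and Ccnd3 fell by 1.63, 1.02, 0.76 and 0.63 on the log2 scale.

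CD8 cells differed from CD4 conventional cells in 4 of the 6 chains, with 1 higher and 3 lower. Over all 7840 genes tested 9.11% were higher and 12.8% lower. Il2rb, the chain shared by the IL-2 and IL-15 receptors, was at 5.65 in combination, 4.98 in anti-PD-1, 3.78 with ATT-I and 6.52 in vehicle CD8 cells, against 3.31, 2.97, 2.31 and 4.20 in CD4 conventional cells. It was higher in CD8 cells of every library by nearly the same factor, although ATT-I CD8 cells lay below vehicle CD4 conventional cells. The 4 log2 differences ran from 0.62 to 0.75, and Il2rb rose 1.62-fold (log2 0.70 ± 0.08, limma adjusted p = 1.0e-04, n = 4).

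Il2ra, Il7r and Il2rg fell in CD8 cells. Il2ra was at 0.572, 0.275, 0.231 and 0.355 in combination, anti-PD-1, ATT-I and vehicle CD8 cells, below the CD4 conventional level of the same library in each case (log2 -1.27 ± 0.15, limma adjusted p = 1.1e-04). Il7r was at 0.680, 0.690, 1.0 and 0.442 in CD8 cells of these libraries, all below the lowest CD4 conventional value of 1.38 (log2 -1.21 ± 0.16, limma adjusted p = 3.5e-04). Il2rg, the common gamma chain itself, was at 2.91, 2.25, 2.58 and 2.62 in CD8 cells, against 5.20, 3.24, 3.23 and 5.57 in CD4 conventional cells.

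For Il7r and Il2rg the 2 gates did not overlap. The share of all genes without overlap was not counted, so this is not read as a trait of these chains. The CD8 gate averaged 2.59 ± 0.271 and the CD4 conventional gate 4.31 ± 1.25 for Il2rg (SD, n = 4), a fall of 0.68 on the log2 scale (SE 0.12, limma adjusted p = 0.0018). Without the library block the limma adjusted p was 0.097 for Il2rb and 0.093 for Il2rg. Il4ra and Il21r did not pass, with log2 differences of -0.22 ± 0.17 and -0.17 ± 0.14 (limma adjusted p = 0.38 and 0.44).

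**Figure D2:**
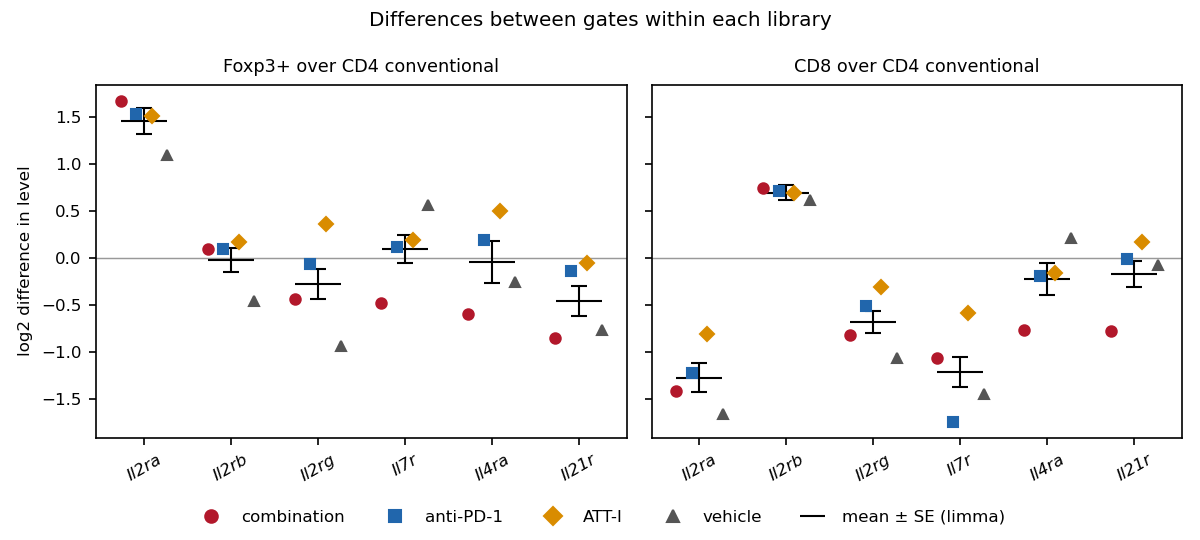
Log2 differences in level between gates within each library, as coloured points, with the limma mean and standard error in black. Il2ra lies between 1.10 and 1.68 for Foxp3+ over CD4 conventional cells in the left panel, and Il2rb between 0.62 and 0.75 for CD8 over CD4 conventional cells in the right panel.

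The pathway list had more genes lower than higher in CD8 cells. Of 36 tested, 6 were higher and 20 lower, where 9.11% and 12.8% of all genes were, with a median log2 of -0.50 against -0.06 over all genes. The 5 with the largest increase were Eomes, Myc, Runx3, Bcl2 and Pim2, by 1.28, 1.04, 1.02, 0.89 and 0.66 on the log2 scale. Eomes, a transcription factor known to promote Il2rb in CD8 T and NK cells, was at 0.385 ± 0.202 in CD8 and 0.128 ± 0.183 in CD4 conventional cells (SD, n = 4), higher in 3 of 4 libraries (limma adjusted p = 0.010).

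The 5 with the largest decrease were Lta, Bcl2l1, Stat5a, Cish and Gata3, by -2.54, -1.39, -1.28, -1.23 and -1.20. Stat5a carries the signal of IL-2 and IL-7, and Cish is a feedback inhibitor that STAT5 induces. Cish averaged 0.782 ± 0.118 in CD8 and 1.97 ± 0.299 in CD4 conventional cells (SD, n = 4, limma adjusted p = 1.6e-05). The members Il2ra, Il7r and Il2rg stood lower in the gate where Stat5a and Cish were also lower, while the member Il2rb stood higher there. The listed STAT5 and survival targets went both ways, with Lta and Bcl2l1 lower and Myc, Bcl2 and Pim2 higher. A link between these changes was not tested.

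NK cells were too few to test, with 0 combination, 5 anti-PD-1, 2 ATT-I and 10 vehicle cells carrying Ncr1 and no Cd3 UMI. In the 10 vehicle cells Il2rb was at 11.6 (exact Poisson 95% interval 10.5 to 12.7), above the 6.52 of vehicle CD8 cells, and every cell had a UMI. Il7r had 2 UMIs in these cells, at 0.0495 (0.00599 to 0.179). Single UMIs had been set to 0 in 8 of the 10 cells, so a lone Il7r UMI there was not seen. Il2rg was at 2.72, Il2ra at 0.693, Il21r at 0.520 and Il4ra at 0.421.

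Il7r fell in dividing cells. In CD8 cells it was at 0.631 in combination, 0.488 in anti-PD-1 and 0.542 in ATT-I cells with an Mki67 UMI, against 1.68, 0.875 and 1.68 in cells without one. In CD4 conventional cells it was at 1.22, 1.73, 0.600 and 0.949 in Mki67+ cells of the combination, anti-PD-1, ATT-I and vehicle, against 2.09, 3.00, 2.24 and 2.26 in Mki67- cells. In both gates all Mki67+ values lay below all Mki67- values, and the share of all genes without overlap was not counted. Set side by side at the same Mki67 status, CD8 values lay below CD4 conventional values in combination, anti-PD-1 and ATT-I. The gap was smallest in Mki67+ ATT-I cells, at 0.542 and 0.600.

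The difference was log2 -1.16 ± 0.19 in CD8 cells (limma adjusted p = 0.012, lower in 3 of 3 libraries) and -1.10 ± 0.18 in CD4 conventional cells (limma adjusted p = 0.0013, lower in 4 of 4). Vehicle held only 4 Mki67- CD8 cells and 1 Mki67- Foxp3+ cell and did not enter those fits. The log2 difference of the 2 effects was -0.08 ± 0.25 (limma adjusted p = 0.96, n = 3). In that limma test 0 of 7627 genes passed (0%), and 422 had an unadjusted p under 0.05. Mki67+ cells were also deeper, with a median of 11632.5 UMIs in anti-PD-1 CD8 cells with Mki67 and 6884 in those without, and after each cell was thinned to 3000 UMIs the CD8 value was -1.20 with limma adjusted p = 0.097. In CD4 conventional cells it was then -1.26 with adjusted p = 0.040. Without the filter on low genes the limma adjusted p was 0.20 in CD8 and 0.093 in CD4 conventional cells.

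Among the 6 chains Il7r was the only one to pass in either gate, 0 higher and 1 lower in each. Over all genes 5.37% were higher and 0.517% lower in Mki67+ CD8 cells (7734 tested), and 5.09% higher and 1.52% lower in Mki67+ CD4 conventional cells (7450 tested). Il2rg did not pass, with -0.58 ± 0.17 in CD8 cells (limma adjusted p = 0.098) and -0.43 ± 0.14 in CD4 conventional cells (adjusted p = 0.095), lower in every library. Il2rb was 0.37 ± 0.14 in CD8 cells, Il21r -0.53 ± 0.20 and Il4ra -0.81 ± 0.31, with limma adjusted p of 0.21, 0.20 and 0.21.

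Il2ra in CD8 cells rested on the combination library. Its level was 0.478 in combination, 0.275 in anti-PD-1 and 0.258 in ATT-I Mki67+ cells, against 2.49, 0.276 and 0.191 in Mki67- cells. The 2.49 came from 43 UMIs in 12 cells, and the other libraries differed little. The log2 difference was -0.62 ± 0.43 (limma adjusted p = 0.48) and 0.15 without the combination.

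In Foxp3+ cells none of the 6 chains passed between Mki67+ and Mki67- cells (0 higher and 0 lower by limma), and over the 7432 genes tested 2.15% were higher and 0.135% lower. Of the 6, Il2rg and Il21r had an unadjusted p under 0.05. Il7r was at 1.30 in combination, 1.87 in anti-PD-1 and 1.49 in ATT-I Mki67+ cells, against 0.331, 3.66 and 2.38 in Mki67- cells. The combination thus went the other way from the other libraries, with 6 UMIs in its 11 Mki67- cells, and the mean was log2 0.04 ± 0.39 (limma adjusted p = 0.98). Without the combination it was -0.79.

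**Figure D3:**
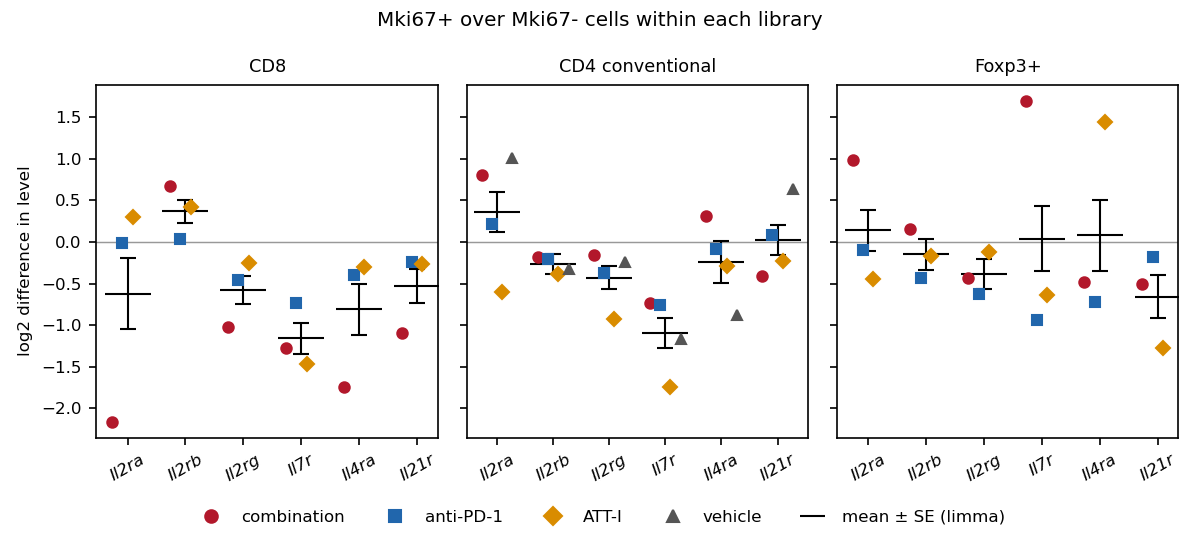
Log2 differences in level between Mki67+ and Mki67- cells within each library (coloured points) and the limma mean with its standard error (black), in CD8, CD4 conventional and Foxp3+ cells. Il7r lies below 0 in every library in CD8 (-1.47 to -0.73) and CD4 conventional cells (-1.74 to -0.73), and on both sides of 0 in Foxp3+ cells (-0.94 to 1.70).

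Of the pathway list, Ccnd2, a cyclin gene of the STAT5 targets, was the 1 gene to pass in both gates, and no list gene was higher. It fell by 1.23 on the log2 scale in Mki67+ CD8 cells (SE 0.23, limma adjusted p = 0.019) and by 0.58 in Mki67+ CD4 conventional cells (SE 0.12, adjusted p = 0.0092). The list median was -0.28 in both gates, against 0.05 over all genes in CD8 cells and -0.01 in CD4 conventional cells. In Foxp3+ cells 0 of 34 list genes passed.

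Within the anti-PD-1 library, which held the most cells, the chains could be followed cell by cell after each was thinned to 3000 UMIs. In CD8 cells Il2ra had a UMI in 12.5% of the 1346 cells with an Il7r UMI (10.8 to 14.4), against 5.53% of the 7324 cells without (5.02 to 6.08). Among Mki67+ CD8 cells these shares were 14.4% and 5.38%, and among Mki67- cells 11.8% and 5.62%. So Il2ra was seen more often beside Il7r in CD8 cells, dividing or not, in this 1 library. This was not particular to Il2ra, since Il4ra (9.21% against 6.02%) and Il2rg (55.4% against 49.1%) went the same way in CD8 cells. For Il21r the shares were 24.8% and 26.1%, with overlapping intervals.

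The cells with an Il7r UMI were the shallower ones before thinning, with a median of 7028 UMIs against 8184. Il2rb went the other way, with 62.5% of CD8 cells with an Il7r UMI (59.8 to 65.1) and 70.7% of those without (69.7 to 71.8). In Foxp3+ cells Il2ra was found in 50.3% of 376 cells with an Il7r UMI and 40.2% of 453 without, and in CD4 conventional cells in 15.4% and 15.8%. No gate here should lack Il2ra, so its background share is not known. Before thinning Il2ra had a UMI in 14.8% of anti-PD-1 CD8 cells, beside 7.79% for Foxp3 in the same cells at a median of 7906 UMIs. The combination had 25 CD8 cells with an Il7r UMI, 28.0% of them with Il2ra (12.1 to 49.4), against 9.57% of 94 without (4.47 to 17.4). In ATT-I CD8 cells the shares were 7.69% and 5.06%. The intervals overlapped in both the combination and ATT-I.

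**Figure D4:**
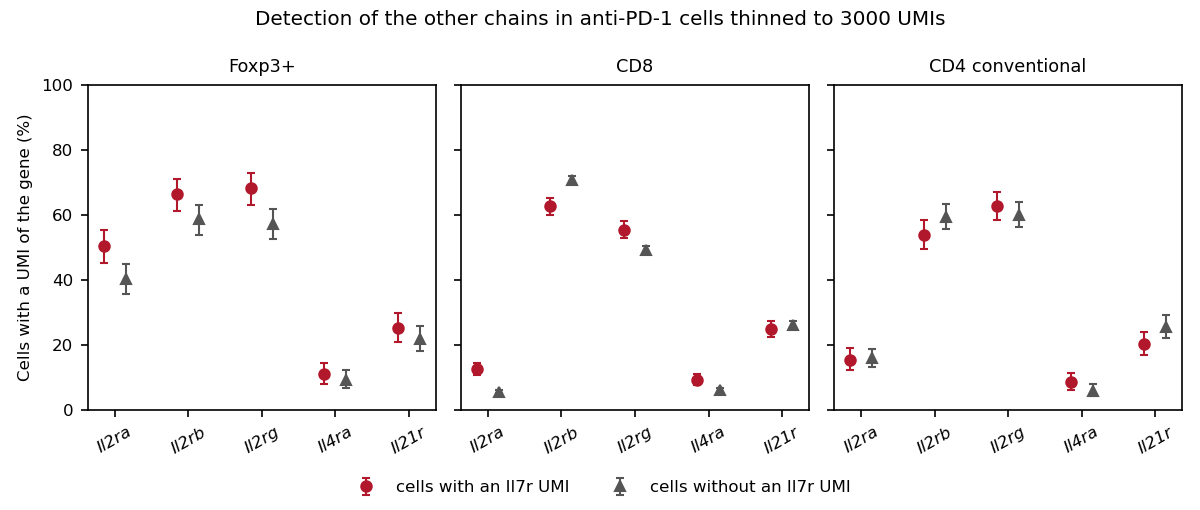
Share of anti-PD-1 cells with a UMI of each other chain after thinning to 3000 UMIs, in cells with (circles) and without (triangles) an Il7r UMI, with exact 95% intervals for counting error. In CD8 cells Il2ra stands at 12.5% and 5.53%, and Il2rb at 62.5% and 70.7%.

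Differences between arms have no replicate library, so they carry no test. Each is a log2 ratio of 2 libraries relative to the median gene, with an exact conditional 95% interval, and counts as past the fold at 1.5-fold or more. The median gene itself lay between -0.28 and 0.20 (log2) in the 3 gates. The comparisons share libraries and are not independent of each other.

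Il2ra was higher in the combination than in each other library. Against anti-PD-1 it was higher by log2 1.20 in Foxp3+ cells (1.04 to 1.35), 0.93 in CD8 cells (0.72 to 1.13) and 0.94 in CD4 conventional cells (0.63 to 1.24). Against ATT-I the values were 1.85, 1.13 and 1.61, and against vehicle 1.0, 0.79 and 0.41, the last of them short of 1.5-fold with an interval that included no difference (-0.03 to 0.84). Against vehicle the CD8 value was 0.54 in Mki67+ cells (0.05 to 1.06), short of the fold, and 43 of the 212 Il2ra UMIs of combination CD8 cells were in 12 Mki67- cells. Without the cells whose single UMIs were set to 0 it was 0.42 in CD8 and 0.53 in Foxp3+ cells, both short of the fold. A single cell held 29.2% of the 106 Il2ra UMIs in combination CD4 conventional cells. After thinning, the share of Foxp3+ cells with an Il2ra UMI was 60.7% in the combination (40.6 to 78.5), 44.8% in anti-PD-1 (41.3 to 48.2), 39.1% with ATT-I (19.7 to 61.5) and 47.8% in vehicle (26.8 to 69.4), with overlapping intervals.

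Il21r, the IL-21 receptor chain, was also higher in the combination than in anti-PD-1, by log2 0.77 in Foxp3+ (0.47 to 1.06), 0.59 in CD8 (0.46 to 0.71) and 1.32 in CD4 conventional cells (1.08 to 1.56). The CD8 value was past the fold in 4 of 7 alternatives and the Foxp3+ value in 6 of 7, with lowest values of 0.48 and 0.54. The level of Il21r in CD4 conventional cells was 2.82 in the combination, 0.992 in anti-PD-1, 1.01 with ATT-I and 1.48 in vehicle. After thinning 60.0% of combination CD4 conventional cells had an Il21r UMI (43.3 to 75.1), against 23.2% in anti-PD-1, 21.6% with ATT-I and 38.9% in vehicle (25.9 to 53.1). Against ATT-I the ratio was 0.63 in Foxp3+, 0.30 in CD8 and 1.27 in CD4 conventional cells, and against vehicle 0.95, 0.30 and 0.99.

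Il7r was low in Foxp3+ cells of the combination. Against anti-PD-1 it was lower there by log2 -1.38 (-1.73 to -1.06), against ATT-I by -0.74 (-1.28 to -0.20) and against vehicle by -0.91 (-1.34 to -0.48). By the levels given above, the gaps to anti-PD-1 and ATT-I were much smaller in Mki67+ than in Mki67- Foxp3+ cells. The combination held 11 Mki67- Foxp3+ cells, with Il7r at 0.331 against 3.66 in anti-PD-1. After thinning 10.7% of the 28 combination Foxp3+ cells had an Il7r UMI (2.27 to 28.2), against 45.4% in anti-PD-1 (41.9 to 48.8), 43.5% with ATT-I (23.2 to 65.5) and 39.1% in vehicle (19.7 to 61.5). The combination interval lay below that of anti-PD-1 and overlapped the other 2. Before thinning, 1 of the 10 vehicle NK cells had an Il7r UMI, at a median of 40192.5 UMIs, against 23291 in combination Foxp3+ cells. Single UMIs had been set to 0 in 8 of these NK cells and in 6 of the 29 combination Foxp3+ cells. The NK share is therefore not a background rate. In CD4 conventional cells Il7r was lower than in anti-PD-1 (-0.92, -1.23 to -0.62), and in CD8 cells it was not (-0.15, -0.34 to 0.03). Combination CD8 cells lay below ATT-I (-0.74, -1.05 to -0.42) and above vehicle (0.73, 0.30 to 1.17, and 0.12 after thinning). In Mki67+ CD8 cells these 2 ratios were 0.13 (-0.35 to 0.64) and 0.66 (0.22 to 1.13).

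Il2rb and Il2rg did not pass the fold in the combination. Against each other library Il2rb in the combination stayed within 1.5-fold in all 3 gates, with values from -0.28 to 0.44, and so did Il2rg, from -0.12 to 0.50. Il4ra, with 10 to 89 UMIs in a gate outside anti-PD-1, was past the fold only in CD4 conventional cells, at 0.71 against anti-PD-1 (0.11 to 1.27), 0.87 against ATT-I (-0.03 to 1.82) and 0.82 against vehicle (-0.09 to 1.77). The last 2 intervals included no difference. After thinning the values were 0.55, 0.36 and 0.46 in the same order, all short of the fold.

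Counted over the 6 chains, the combination was past the fold against anti-PD-1 for 3 in Foxp3+, 2 in CD8 and 4 in CD4 conventional cells, where 38.4%, 34.8% and 37.0% of all genes were. Against ATT-I it was 3, 2 and 3 of 6, beside 44.5%, 31.5% and 37.1% of all genes, and against vehicle 3, 2 and 2 of 6, beside 41.1%, 22.9% and 31.7%. With so many genes past the fold, these counts are not a result about the 6 chains.

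**Figure D5:**
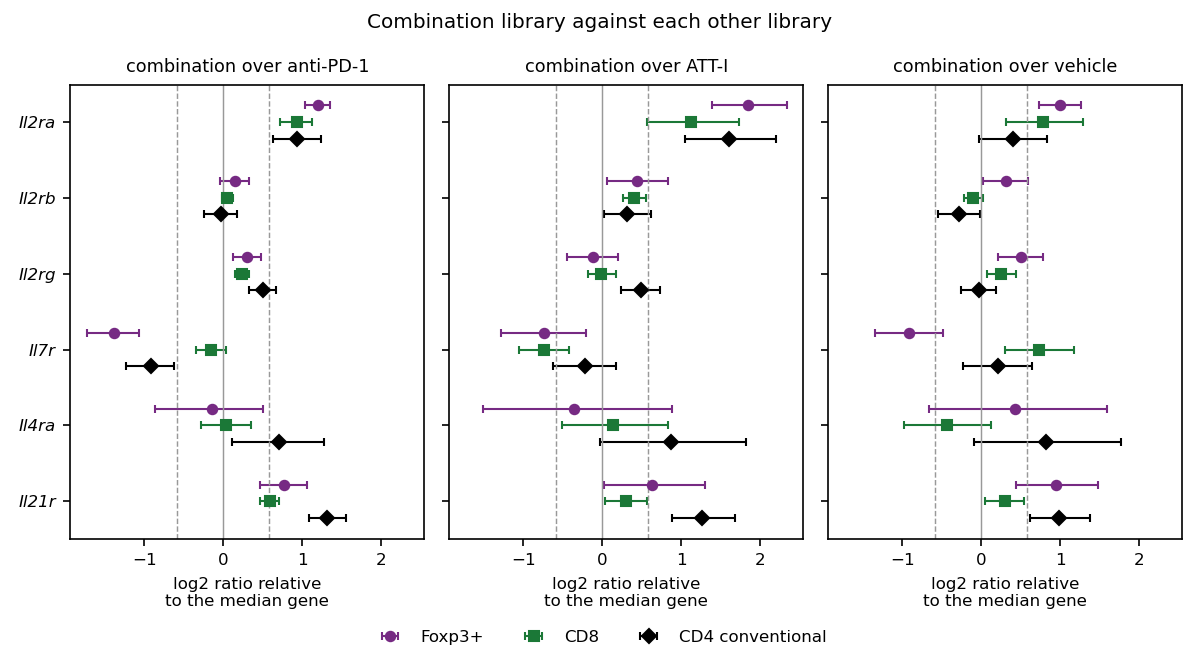
Log2 ratios of the combination library over each other library, relative to the median gene, for the 6 chains in 3 gates, with 95% counting intervals, and dashed lines mark 1.5-fold. Il2ra lies right of 0 in all 9 ratios (0.41 to 1.85), and Il7r in Foxp3+ cells lies left of it in all 3 (-1.38 to -0.74).

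In CD8 cells Il7r was higher than in vehicle by log2 0.91 for the antibody alone (0.53 to 1.31) and 1.46 for ATT-I (0.99 to 1.93), with 56 Il7r UMIs in vehicle. In Mki67+ CD8 cells, 91.8% of the vehicle gate, these ratios were 0.41 (0.02 to 0.84) and 0.54 (-0.08 to 1.15). As given above, Il7r was also higher than vehicle in CD8 cells of the combination (0.73). After thinning the CD8 values were 0.36 for anti-PD-1, 1.13 for ATT-I and 0.12 for the combination. Only the ATT-I value then stayed past the fold. In CD4 conventional cells Il7r was higher in anti-PD-1 (1.12, 0.80 to 1.45), and in ATT-I it was at 0.43 (0.02 to 0.86).

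Il2ra was lower in ATT-I, by -0.83 in Foxp3+ (-1.35 to -0.34) and -1.20 in CD4 conventional cells (-1.81 to -0.62), with -0.34 in CD8 cells (-1.06 to 0.35). In anti-PD-1 the Il2ra values against vehicle were -0.19 in Foxp3+, -0.10 in CD8 and -0.54 in CD4 conventional cells, none past the fold. The ATT-I value in CD4 conventional cells was past the fold in 7 of 7 alternatives and that in Foxp3+ cells in 6 of 7, with -0.24 for the mean over cells. In CD4 conventional cells epithelial tumour markers summed to 5.04 and red cell genes to 17.7 UMIs per 10000 in ATT-I, against 0.167 and 0.117 in vehicle, and their part in the result was not tested. Anti-PD-1 was past the fold against vehicle for 0 chains in Foxp3+, 1 in CD8 and 1 in CD4 conventional cells, beside 41.2%, 42.4% and 42.0% of all genes. ATT-I was past it for 3, 1 and 2 chains, beside 45.2%, 36.1% and 37.0%. The others in ATT-I were Il2rg (0.64) and Il4ra (0.81, -0.56 to 2.15) in Foxp3+ cells and Il2rb (-0.59) in CD4 conventional cells. Il2rb was past the fold in 1 of 7 alternatives, at -0.44 after thinning, Il2rg in 3 of 7, with a lowest value of 0.54, and Il4ra in 5 of 7.

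Of the ligands, Il2 was at 0.0477 in combination (3 UMIs, 0.00984 to 0.139), 0.649 in anti-PD-1 (0.595 to 0.706), 0.227 with ATT-I (0.132 to 0.363) and 0.1 in vehicle CD4 conventional cells (0.0367 to 0.218). Anti-PD-1 thus had the most Il2 RNA and the intervals of the combination and vehicle overlapped. Il21 was at 0.255, 0.155, 0.160 and 0.133 in the same gate and order, with overlapping intervals. In CD8 and Foxp3+ cells Il21 had 53 and 9 UMIs in anti-PD-1 and 0 in the other libraries. These gates held 83374225 and 6871121 UMIs in anti-PD-1, against at most 3707744 and 742238 elsewhere. At that depth the zeros do not set anti-PD-1 apart. Il7 and Il15, made mostly by stromal and myeloid cells, reached at most 0.0725 and 0.0334 in any of these gates.

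Irf4 and Stat5a were among the 3 highest list genes of the combination against anti-PD-1 in each gate, and Bcl2 among the 3 lowest. Irf4, a factor induced by receptor signals, was higher than in anti-PD-1 by log2 3.15 in Foxp3+, 1.82 in CD8 and 1.73 in CD4 conventional cells. Stat5a was higher by 1.71, 1.06 and 1.37. Bcl2 was lower by -1.39, -1.15 and -1.06 in the same order of gates. Klf2, a transcription factor of resting T cells, was lower by -2.40 in Foxp3+ and -1.22 in CD4 conventional cells.

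Counted over the list, 9 genes were higher and 8 lower of 35 tested in Foxp3+ cells, 7 and 7 of 36 in CD8 cells, and 9 and 6 of 32 in CD4 conventional cells. The list medians were 0.02, 0.02 and 0.18. Over all genes 38.4%, 34.8% and 37.0% were past the fold, so the counts are not a result about the list. Against vehicle, Irf4 (3.24) and Stat3 (1.49) were highest and Klf2 (-2.15) lowest in combination Foxp3+ cells, and Bcl2 was lower in all 3 gates (-1.57, -1.17 and -1.05). Bcl2 and Il7r were both lower in Foxp3+ cells of the combination than in those of vehicle. In CD8 and CD4 conventional cells Il7r was not lower, at 0.73 (0.30 to 1.17) and 0.21 (-0.23 to 0.65). A link between the 2 genes was not tested.

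Across the 22 library, gate and Mki67 populations with at least 10 cells, Il2ra ranged most, 33.6 times between ATT-I Mki67- CD8 cells (0.191) and combination Mki67+ Foxp3+ cells (6.42). Il7r ranged 11.1 times, with its lowest level (0.331) in Mki67- combination and its highest (3.66) in Mki67- anti-PD-1 Foxp3+ cells. Il4ra ranged 8.16 times, but its lowest level (0.113) is 1 UMI in 12 ATT-I Mki67- Foxp3+ cells. Il21r ranged 5.27 times, and Il2rb and Il2rg 3.35 times each.

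The genes whose log2 levels followed a chain most closely over these populations, among 7777 compared, were Nrip1, M6pr and Itgb8 for Il2ra (Pearson r 0.89, 0.88 and 0.87) and Selenop, Cytip and Snx20 for Il7r (0.84, 0.84 and 0.82). For Il21r they were Nr4a3, Slc7a6 and Kif16b (0.89, 0.86 and 0.86), for Il2rb Iqsec1, Mef2a and Chsy1 (0.85, 0.84 and 0.82), for Il2rg Msi2, Ubl3 and Foxj2 (0.87 each) and for Il4ra Ppfibp1, Ndel1 and Fam160b1 (0.81, 0.81 and 0.80). Between chains the highest r were 0.62 for Il2rg and Il4ra and 0.60 for Il2rg and Il21r, and the lowest was -0.39 for Il2rb and Il7r. The populations share 4 libraries and their depths, so these values describe the 4 libraries and carry no test.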

How the data were processed

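The deposited table is on a natural log scale, and each of the authors' values equals the natural log of 1 plus the gene's UMIs scaled to a cell total of 10000, minus a constant that differs by library (0.225 combination, 0.249 anti-PD-1, 0.153 ATT-I, 0.247 vehicle) and set to 0 below it. This form was read from the values, since no label states it. With it, 100% of non-zero values came within 0.02 of a whole UMI. In 37 combination, 37 anti-PD-1, 0 ATT-I and 21 vehicle cells this set single UMIs to 0. Per the submitters' processing notes, Cell Ranger, Seurat and mm10 were used, with versions and filters on cells not given in the sources used here. No doublet caller was run here.

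UMIs were summed per library and gate. T gates needed a Cd3d, Cd3e or Cd3g UMI, CD8 and CD4 were told apart as described, and Foxp3+ and CD4 conventional cells had at least as many Cd4 as Cd8 UMIs. Gate differences were fitted with limma 3.58.1 (R 4.3.3, trend, library as block) on log2(level + 0.1), which understates the change of low genes, across all genes with a UMI in 10% of cells or more, in libraries with at least 10 cells in both gates and at least 3 libraries. The block pairs gates that come from the same pooled library. P-values were adjusted by the Benjamini-Hochberg method over all genes, and 0.05 was the threshold. Gate genes were left out. P-values measure the spread between these libraries. Arm comparisons use the ratios described, and shares of cells use cells thinned to 3000 UMIs, in Python 3.11.15. Depth sets the intervals, which are narrowest in anti-PD-1. The limma step was tested on simulated data. In the test of the difference between 2 Mki67 effects the variance trend runs over the mean log2 level. A first version, the one planned, let it run over the difference itself. On simulated data without any effect that version gave too few small p-values, and it is kept as an alternative. The version over the mean level, used for the results above, was chosen after seeing the data. NK cells were too few for a test.

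Named pathway genes were up to 5 per direction past the test in a gate contrast and up to 3 per direction past 1.5-fold between arms. Ligands were named by role after their values were seen. The members, lists and tests were chosen with earlier results of these data known.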

Additional observations from a re-analysis of the deposited data

Results flagged for a closer look

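Il2rb differed in sign with Mki67 between the CD8 and CD4 conventional gates. It was higher in Mki67+ than in Mki67- CD8 cells in 3 of 3 libraries (log2 0.37 ± 0.14) and lower in Mki67+ than in Mki67- CD4 conventional cells in 4 of 4 (-0.27 ± 0.12). The CD8 differences were 0.67 in the combination, which has 12 Mki67- CD8 cells, 0.04 in anti-PD-1, and 0.42 with ATT-I. Neither passed alone (limma adjusted p = 0.21 and 0.25). The difference of the 2 effects was log2 0.63 ± 0.19 over the 3 libraries that hold enough cells of all 4 populations, higher in 3 of 3. It did not pass after adjustment (limma adjusted p = 0.85).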

How the results depend on the processing

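The limits are those of 1 library per arm and of small gates. Outside anti-PD-1 a gate held 23 to 121 cells, so low genes such as Il4ra rest on few UMIs, and differences between arms cannot be told apart from differences between libraries. No paired analysis was possible between arms because each arm has 1 library. The causes of the changes given here were not tested.

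Between gates, with library as the block, 492 genes passed for Mki67 in CD4 conventional cells. The count was 806 with Mki67+ set at 2 or more UMIs, 287 with the mean over cells, 66 after thinning to 3000 UMIs, 303 without cells above the 95th percentile of UMIs, 152 without the filter on low genes, and 288 to 452 with 1 library left out. For Mki67 in Foxp3+ cells 170 passed, with 95 for the mean over cells, 12 after thinning, 79 with a pseudocount of 0.02, 0 without the filter (limma), and 43 to 288 with 1 library left out. For Mki67 in CD8 cells 455 passed, with 108 after thinning, 0 without the filter (limma), and 375 to 1108 with 1 library left out. For Foxp3+ against CD4 conventional cells 668 passed, with 444 for the mean over cells, 143 after thinning, 419 without the cells whose single UMIs were set to 0, 50 without the filter, and 384 to 719 with 1 library left out. For CD8 against CD4 conventional cells 1717 passed, with 579 after thinning, 701 without the filter, and 954 to 1534 with 1 library left out. For the difference between the 2 Mki67 effects 0 passed, against 1 with Mki67+ at 2 or more UMIs and 25 to 47 with 1 library left out, which leaves 2 libraries.

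Without the replicate block the counts were 288 for Mki67 in CD8, 251 in CD4 conventional and 102 in Foxp3+ cells, 141 for Foxp3+ and 395 for CD8 against CD4 conventional cells. Without the block the limma adjusted p was 0.066 for Il2ra in Foxp3+ cells, 0.058 for Il7r with Mki67 in CD8 cells, and 0.097 for Il2rb and 0.093 for Il2rg in CD8 cells, so these calls were lost, while Il2ra and Il7r in CD8 against CD4 conventional cells and Il7r with Mki67 in CD4 conventional cells kept theirs. Without the filter the adjusted p of Il7r with Mki67 was 0.20 in CD8 and 0.093 in CD4 conventional cells, and that of Il2rg in CD8 cells 0.051. Calls were gained for Il2rg with Mki67 in CD4 conventional cells at 2 or more Mki67 UMIs (0.018), and, without ATT-I, for Il2rg with Mki67 in CD8 cells (0.032), Il21r in Foxp3+ cells (0.048) and the Il2ra difference between Mki67 effects (0.0025).

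The gate values that changed sign had not passed the test. For Foxp3+ against CD4 conventional cells, Il4ra (-0.04) was 0.01 with exclusive gates, 0.14 with the mean over cells, 0.06 without the cells above the 95th percentile, 0.08 without cells with single UMIs set to 0, 0.03 relative to the median gene, and -0.21 to 0.15 with 1 library left out. In the same contrast Il2rb (-0.02) was 0.11, 0.01 and 0.05 with the mean over cells, without the deepest cells and relative to the median gene, and -0.09 to 0.12 with 1 library left out, and Il7r (0.10) -0.06 to 0.29. For Mki67 in CD4 conventional cells Il21r (0.02) was -0.06 with exclusive gates, -0.09 at 2 or more Mki67 UMIs, -0.08 without the deepest cells, and -0.19 to 0.16 with 1 library left out. For Mki67 in Foxp3+ cells Il7r (0.04) was -0.36 at 2 or more Mki67 UMIs, -0.08 with a pseudocount of 0.5, 0.00 relative to the median gene and -0.79 to 0.53 with 1 library left out. There Il4ra (0.08) was -0.05 at 2 or more Mki67 UMIs and -0.60 to 0.48 with 1 left out, Il2rb (-0.15) 0.12 with the mean over cells, and Il2ra (0.14) -0.28 to 0.44. With 1 library left out Il2ra with Mki67 in CD8 cells (-0.62) was -1.08 to 0.15 and Il21r in CD8 against CD4 conventional cells (-0.17) -0.28 to 0.03. For the difference between Mki67 effects Il7r (-0.08) was 0.17 at 2 or more Mki67 UMIs, 0.02 with a pseudocount of 0.5 and -0.26 to 0.15 with 1 library left out, Il2ra (-0.76) -1.60 to 0.34 and Il2rg (-0.09) -0.47 to 0.30.

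Between arms, anti-PD-1 against vehicle had 2 of 18 member values past the fold, 4 with exclusive gates, 4 without the deepest cells, 5 without cells with single UMIs set to 0 and 5 without subtracting the median gene. Thinning turned the sign of 5 member values. Il4ra of ATT-I against vehicle in Foxp3+ cells was -0.36 (0.81), and Il7r of the combination against vehicle in Mki67+ CD8 cells -0.14 (0.66). Against anti-PD-1 Il4ra in Mki67- CD8 cells was -0.05 (1.62), and against ATT-I Il2ra in Mki67+ CD8 cells -0.26 (0.80) and Il4ra in Mki67- CD8 cells -0.32 (1.64). Thinning also took Il7r in CD8 cells below the fold, to 0.36 for anti-PD-1 and 0.12 for the combination against vehicle.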
